A study of Homo sapiens with 9 samples.

Results

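MDA-MB-231 cells that survived erastin were compared with vehicle-treated MDA-MB-231 cells across all genes, outside the genes that were shown for the PI3K-AKT and MAPK pathways. The comparison took every library labelled with erastin treatment (3 libraries, called erastin-R) and every library labelled with DMSO (3 libraries, called vehicle), which are 6 of the 9 libraries of the series. The remaining 3 libraries came from cells that survived RSL3 (RSL3-R). MDA-MB-231 is an established human cell line of triple-negative breast cancer, and the labels of the 3 groups differ only in the agent that they name. The survivors came through treatment with raised amounts of drug and are a selected population of 1 line. Effects of the agent and of selection therefore cannot be told apart in these libraries. Their dose and time of treatment are not given in the labels. The libraries are bulk RNA, so that fewer cells of one kind and less RNA per cell cannot be told apart. The labels do not say whether the replicates of a group were separate cultures, so the p values measure only the spread between these libraries.

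Erastin blocks system xc-, the exchanger that brings cystine into the cell in return for glutamate. Cystine is reduced to cysteine, the limiting amino acid of glutathione, and glutathione peroxidase GPX4 uses glutathione to remove lipid peroxides from membranes. When this chain fails, iron-driven peroxidation of polyunsaturated phospholipids kills the cell, which is called ferroptosis. 2 transcription factors answer to its early steps in many cells: ATF4, which is translated when amino acids are short, and NRF2, which is stabilized by electrophiles and oxidants.

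Messenger RNA was selected by its poly(A) tail, and the authors deposited a read count for each of 58735 genes. Libraries held between 15405102 and 17273464 counts. The level of a gene is given as CPM, its counts scaled to library size after TMM normalisation, in the order of replicates 1, 2 and 3. Across the 16188 genes left after removal of low counts by edgeR, differential expression was called at an adjusted p under 0.05 with a log2 fold change of 1 or more in size. By this rule 1084 genes (6.7%) were higher and 1078 (6.66%) lower in erastin-R than in vehicle cells. "Rose" and "fell" are used for an adjusted p under 0.05 alone, which 4390 genes (27.1%) and 4345 genes (26.8%) met. The median log2 fold change of all genes tested was -0.00418. Groups that do not overlap were common. All 3 erastin-R libraries lay above the vehicle range for 4652 genes (28.7%) and below it for 4713 (29.1%). The 6 markers fixed for the cell line (VIM, CD44, EGFR, KRT18, KRT8 and AXL) summed to between 3420 and 3490 CPM in vehicle and between 3520 and 3750 CPM in erastin-R libraries. Single markers moved apart within this sum. KRT18, KRT8 and CD44 fell by 1.124, 1.004 and 0.155 on the log2 scale, AXL and EGFR rose by 0.585 and 0.263, and VIM stood at -0.03. Luminal markers, mostly KRT19, summed to between 97.9 and 102 CPM in vehicle and between 96.2 and 103 CPM in erastin-R libraries. Hormone and HER2 receptors, mostly ERBB2, summed to between 88 and 97.4 CPM and between 77.8 and 89.1 CPM. Leukocyte markers summed to 1.17 CPM or less in each of these 6 libraries. Fibroblast markers summed to between 14.7 and 17.2 CPM and between 13.7 and 17.3 CPM, with COL1A2 and COL3A1 at 0 in these 6 libraries. Of these, DCN went from 18, 15 and 13 counts to 1, 1 and 4 counts (log2 fold change -2.856, adjusted p = 6.41e-04, edgeR). The 4 endothelial markers summed to between 18.4 and 22.5 CPM in vehicle and between 10.8 and 12.6 CPM in erastin-R libraries. Of these, PECAM1 went from 160, 177 and 154 counts to 36, 20 and 32 counts, and CDH5 and VWF held at most 6 counts in any of the 6 libraries. KDR was at 8.64, 11.4 and 9.68 CPM in vehicle and 10.2, 9.16 and 9.36 CPM in erastin-R libraries, most of the endothelial sum there.

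Erastin-R replicate 1 stood apart from the other erastin-R libraries. The log2 CPM of a gene in replicate 1 minus the mean of replicates 2 and 3 had an SD of 0.419 over the genes tested, against 0.339 and 0.332 when replicates 2 and 3 took that place. Without replicate 1, 1253 genes (7.54% of 16619) were differentially expressed and higher and 1320 (7.94%) were lower. Of the 2162 genes called with all libraries, 1972 (91.2%) were called in the same direction without it and 0 in the other direction. The programmes were therefore also fitted without this library. The programmes are 27 gene lists, from which the 39 heatmap genes of the PI3K-AKT and MAPK pathways were left out, and 717 of their 773 members passed the filter. Among these, 59 (8.23%) were differentially expressed and higher and 71 (9.9%) were lower. The calls of each list are to be read beside the shares of all genes, 6.7% higher and 6.66% lower.

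**Figure D1:**
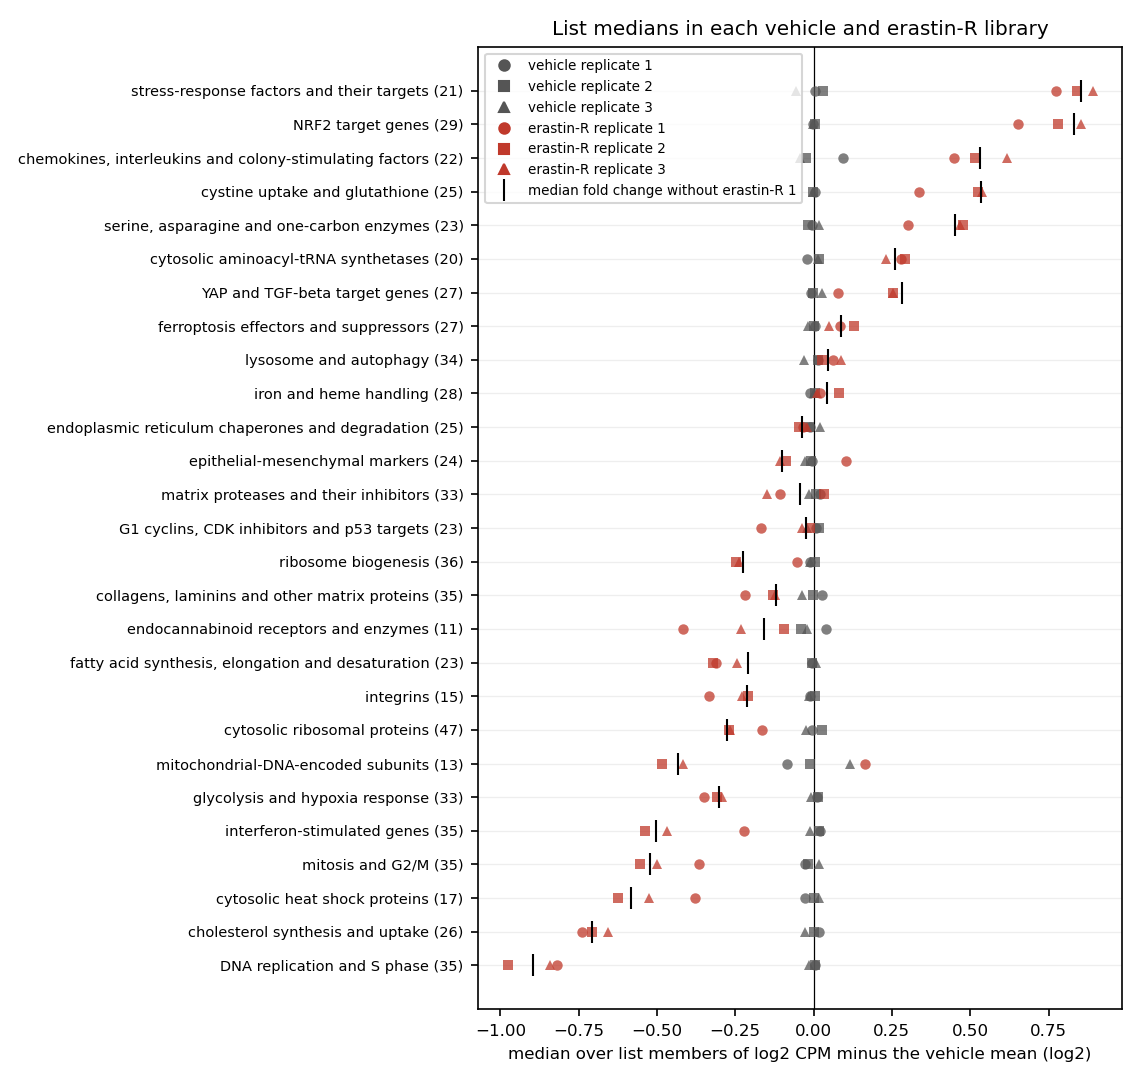
Each row is a gene list with its number of tested members in brackets, and each point is 1 library, placed at the median over the members of log2 CPM minus the vehicle mean (vehicle grey, erastin-R red, replicates by shape). The black bar is the median log2 fold change without erastin-R replicate 1. Stress-response and NRF2 lists lie highest and the S-phase list lowest, and for the mitochondrial-DNA list erastin-R replicate 1 lies at 0.17 while replicates 2 and 3 lie at -0.48 and -0.42.

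Genes for cystine uptake and glutathione synthesis were higher in erastin-R cells. Of 25 tested members, 15 rose and 3 fell. Differentially expressed were 7 higher (28%) and 1 lower (4%), CHAC2, against 6.7% and 6.66% of all genes. The list median was 0.41, and 0.54 over the same members without erastin-R replicate 1, where the same 8 members were called. SLC7A11 (ENSG00000151012; chr4:138164097-138242349), the transport subunit of system xc- and thus of the protein that erastin blocks, had 30.1, 30.2 and 31.3 CPM in vehicle and 213, 213 and 195 CPM in erastin-R libraries (log2 fold change 2.76, standard error 0.06, adjusted p = 6.24e-12, edgeR). The groups did not overlap. GCLC (ENSG00000001084; chr6:53497341-53616970), the catalytic subunit of the ligase that starts glutathione synthesis, was at 41.1, 40.2 and 45.1 CPM in vehicle and 132, 113 and 112 CPM in erastin-R libraries (log2 fold change 1.5, standard error 0.08, adjusted p = 5.60e-09, edgeR). Its modifier subunit GCLM (ENSG00000023909; chr1:93885205-93909456) was at 61.2, 67.8 and 69.5 CPM and 157, 179 and 169.7 CPM (log2 fold change 1.35, standard error 0.07, adjusted p = 8.16e-09, edgeR). Both subunits were also above their level in RSL3-R cells, by 1.34 (adjusted p = 2.04e-08, edgeR) and 1.75 (adjusted p = 1.95e-09) on the log2 scale, whereas SLC7A11 differed by 0.23 (adjusted p = 0.00371). CTH, which releases cysteine from cystathionine in the transsulfuration pathway, went from 3.99 ± 0.990 CPM to 25 ± 1.95 CPM (SD, n = 3; log2 fold change 2.65, adjusted p = 6.61e-09, edgeR). The list as a whole was not above its level in RSL3-R cells. Tested directly, 2 of the 25 members were called above RSL3-R cells and 2 below, with a median difference of -0.09. Of all genes, 3.48% were above and 6.86% below.

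The 2 intracellular enzymes that break glutathione down moved in opposite directions. CHAC1 rose from 7.04, 6.61 and 5.30 CPM in vehicle to 24.1, 32.1 and 33.4 CPM in erastin-R libraries (log2 fold change 2.24, standard error 0.13, adjusted p = 1.65e-08, edgeR), and its level in RSL3-R libraries was 91.9, 91.9 and 88.2 CPM. The difference between the survivor groups was -1.60 on the log2 scale (adjusted p = 9.25e-08, edgeR), with erastin-R lower. CHAC2 fell by 1.22 on the log2 scale, from 9.42, 9.39 and 9.38 CPM to 3.16, 5.47 and 3.53 CPM (adjusted p = 1.15e-04, edgeR). Neither pair of groups overlapped.

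Target genes of NRF2 were higher as well, with 11 of 29 tested members differentially expressed and higher (37.9%). In all 23 members rose and 4 fell, with a median of 0.69 and of 0.83 without erastin-R replicate 1. The count stayed at 11 without that library, with AKR1C3 in place of ABCC2, and CBR3 was then differentially expressed and lower (log2 fold change -1.0, adjusted p = 5.70e-05, edgeR). Some of these genes also stand in the glutathione and iron lists. TXNRD1 (ENSG00000198431; chr12:104215779-104350305), the cytosolic thioredoxin reductase, had 536, 527 and 514 CPM in vehicle and 1524, 1466 and 1422 CPM in erastin-R libraries (log2 fold change 1.48, standard error 0.05, adjusted p = 2.99e-10, edgeR). NQO1 (ENSG00000181019; chr16:69706996-69726951), a quinone reductase widely used to read NRF2 activity, had 89.8, 87.5 and 90.1 CPM and 208, 198 and 208 CPM (log2 fold change 1.20, standard error 0.06, adjusted p = 1.98e-09, edgeR). RSL3-R libraries held 90.0, 85.6 and 90.6 CPM of NQO1, which overlapped the vehicle range. TRIM16L was at 16.5 ± 0.178 CPM in vehicle and 56.6 ± 0.774 CPM in erastin-R cells (SD, n = 3), with a log2 fold change of 1.78 (adjusted p = 6.61e-10, edgeR). Of its 50-base words 42.6% also occur in other genes, mostly TRIM16, so reads could be split between the pair. Tested directly, 8 of the 29 members were called above RSL3-R cells by the same rule, as 3.48% of all genes were, and the median difference was 0.47. The members that fell were PRDX1, CBR1, IDH1 and CBR3, named after their values were seen, with log2 fold changes of -0.14, -0.27, -0.43 and -0.99.

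Iron storage genes rose strongly while the list of iron and heme genes as a whole had a median of 0.007, close to that of all genes. Ferritin keeps iron in a form that cannot drive peroxidation. Its heavy chain FTH1 (ENSG00000167996; chr11:61959718-61967660) was at 455, 427 and 370.5 CPM in vehicle and 1513, 1967 and 2001 CPM in erastin-R libraries (log2 fold change 2.13, standard error 0.12, adjusted p = 7.59e-09, edgeR). For the light chain FTL (ENSG00000087086; chr19:48965301-48966878) the values were 1443, 1492 and 1454 CPM and 4200.0, 4090.0 and 4269 CPM (log2 fold change 1.52, standard error 0.05, adjusted p = 2.58e-10, edgeR). The groups did not overlap for either chain, and erastin-R replicate 1 held the lowest FTH1 level of the 3. Of the exon length of FTH1, 62.4% lies under other genes, with BEST1 on the opposite strand the largest overlap. HMOX1, which frees iron from heme, had 9.48, 8.71 and 8.08 CPM and 25.3, 24.3 and 26.6 CPM (log2 fold change 1.53, standard error 0.11, adjusted p = 9.36e-08, edgeR). FTH1, FTL and HMOX1 were each also differentially expressed and higher than in RSL3-R cells, by 1.4, 1.20 and 1.04 on the log2 scale (adjusted p = 5.16e-07, 1.92e-09 and 4.04e-06, edgeR). TFRC, the transferrin receptor that imports iron, fell by 0.61 on the log2 scale, from 722, 715 and 729.7 CPM to 473, 485 and 457 CPM (adjusted p = 4.16e-07, edgeR). NCOA4, the receptor that delivers ferritin to lysosomes, fell by 0.32 (adjusted p = 0.00313). The iron exporter ferroportin, SLC40A1, went from 3.7, 3.4 and 4.13 CPM to 1.67, 2.29 and 1.64 CPM, and the endosomal iron reductase STEAP3 from 125, 119 and 114 CPM to 53, 60.9 and 61.3 CPM. Both were differentially expressed and lower (log2 fold changes -1.0 and -1.03), but without erastin-R replicate 1 they stood at -0.93 and -0.97, inside the fold threshold. The count of lower members of this list then went from 2 to 0 by edgeR, with 10 members that still fell at an adjusted p under 0.05 (30.3% of all genes fell and 29.6% rose without that library).

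Enzymes that carry out or oppose lipid peroxidation rose and fell in near equal number. In the list of ferroptosis effectors and suppressors, 8 of 27 tested members rose and 7 fell, shares near the background, and the median was 0.12 (0.09 without erastin-R replicate 1). Differentially expressed members were 2 higher (7.41%) and 1 lower (3.7%) with all libraries, against 6.7% and 6.66% of all genes. They were 3 higher and 2 lower without replicate 1, where ALOX15B and ALOX5 were added. GPX4 (ENSG00000167468; chr19:1103926-1106791) had 192, 193 and 195 CPM in vehicle and 265, 276 and 285 CPM in erastin-R libraries (log2 fold change 0.51, standard error 0.06, adjusted p = 4.74e-06, edgeR). AIFM2, the ubiquinone reductase that acts beside GPX4, rose by 0.41 on the log2 scale (adjusted p = 0.0013, edgeR) and was 0.79 above its level in RSL3-R cells (adjusted p = 8.45e-06). ACSL4, which activates polyunsaturated fatty acids for use in phospholipids, had 152, 159 and 177 CPM and 188, 186 and 166 CPM, ranges that overlapped (log2 fold change 0.14, adjusted p = 0.101, edgeR). LPCAT3, which places such acyl chains into phospholipids, fell by 0.42 (adjusted p = 0.0138, edgeR). Of its exon length, 65.6% lies under other genes, with EMG1 on the opposite strand the largest overlap. ACSL3, which activates monounsaturated fatty acids, fell by 0.38 (adjusted p = 1.78e-04, edgeR). SAT1, which breaks down polyamines, went from 40.4, 39.8 and 35.0 CPM to 132, 126 and 132 CPM (log2 fold change 1.76, standard error 0.07, adjusted p = 4.64e-10, edgeR). PTGS2, the cyclooxygenase often used as a ferroptosis mark, was at 4.79 ± 0.341 CPM in vehicle, 10.8 ± 0.743 CPM in erastin-R and 28.8 ± 1.17 CPM in RSL3-R cells (SD, n = 3), and the difference between the survivor groups was -1.42 on the log2 scale (adjusted p = 1.31e-07, edgeR). The acyltransferase MBOAT1 fell by 1.26 (adjusted p = 9.14e-04).

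The endocannabinoid system was included because the study is about the cannabinoid receptor CB1. The receptor's gene CNR1 had 2, 3 and 3 counts in vehicle and 3, 5 and 1 counts in erastin-R libraries, at or near the floor of 3 counts, so that no difference was detectable at this depth. CNR2, GPR55 and FAAH2 did not pass the filter either. Of the 11 tested members 3 rose and 5 fell, over log2 fold changes from -1.0 to 0.72. The lowest was NAPEPLD, which makes anandamide and related lipids and which was differentially expressed without erastin-R replicate 1 (-1.09, adjusted p = 1.10e-08, edgeR). MGLL, the lipase that breaks down 2-arachidonoylglycerol, had 99.6, 103 and 96.7 CPM in vehicle and 148, 169 and 174 CPM in erastin-R libraries (log2 fold change 0.72, standard error 0.07, adjusted p = 9.58e-07, edgeR).

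Genes of the stress-response list were higher in erastin-R cells as a group. The list of stress-response factors and their targets had the highest median of the 27, 0.81 (0.85 without erastin-R replicate 1). Of its 21 tested members 18 rose and 2 fell, and 9 (42.9%) were differentially expressed and higher. The same 9 were called without erastin-R replicate 1, together with XBP1. GDF15 (ENSG00000130513; chr19:18374731-18389176), a secreted stress hormone, had 9.42, 9.94 and 10.4 CPM in vehicle and 69.1, 103 and 99.7 CPM in erastin-R libraries (log2 fold change 3.19, standard error 0.14, adjusted p = 9.22e-10, edgeR). BBC3, which encodes the pro-apoptotic protein PUMA, was at 7.63, 8.21 and 6.97 CPM and 23.1, 32.5 and 33.5 CPM (log2 fold change 1.96, standard error 0.15, adjusted p = 1.57e-07, edgeR). TRIB3 and ATF3, both induced through ATF4, rose by 1.76 and 1.77 on the log2 scale (adjusted p = 1.08e-08 and 6.69e-07, edgeR). The transcript of ATF4 itself went from 299.7, 303 and 294 CPM to 371, 354 and 378 CPM (log2 fold change 0.30, standard error 0.05, adjusted p = 3.40e-04, edgeR). Levels in erastin-R libraries were lowest in replicate 1 for GDF15, CHAC1, BBC3, ATF3 and TRIB3, and still above each vehicle library. Against RSL3-R cells, 6 of the 21 were differentially expressed and lower in erastin-R cells, where 6.86% of all genes were. GDF15 differed by -0.84 (adjusted p = 3.78e-05, edgeR) and TRIB3 by -1.08 (adjusted p = 7.93e-07), while ATF3 differed by -0.01 (adjusted p = 0.965).

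Enzymes that make amino acids rose too. Of 23 tested members of the serine, asparagine and one-carbon list, 14 rose and 4 fell, with a median of 0.40 (0.45 without erastin-R replicate 1, where GPT2 was added to the 5 calls). The 5 calls were 4 higher (17.4%) and 1 lower (4.35%), against 6.7% and 6.66% of all genes. ASNS (ENSG00000070669; chr7:97852118-97872542), which makes asparagine, had 2.09, 1.73 and 2.10 CPM in vehicle, 27.0, 30.4 and 25.8 CPM in erastin-R and 27.3, 29 and 26.4 CPM in RSL3-R libraries. Its log2 fold change over vehicle was 3.81 (standard error 0.13, adjusted p = 2.58e-10, edgeR), and it differed between the survivor groups by 0.01 (standard error 0.10, adjusted p = 0.955). Of the exon length of ASNS, 44.6% lies under other genes, with AC079781.5 on the same strand the largest overlap. PHGDH, the first enzyme of serine synthesis, was at 17.7, 18.6 and 19.0 CPM and 44.2, 46.6 and 53.2 CPM (log2 fold change 1.38, standard error 0.08, adjusted p = 1.60e-08, edgeR). The next enzyme, PSAT1, rose by 0.71 (adjusted p = 2.02e-07, edgeR), and its difference from RSL3-R cells was -1.19 on the log2 scale (adjusted p = 3.10e-09). ASS1, of arginine synthesis, rose by 1.38 (adjusted p = 8.92e-08) and the mitochondrial folate enzyme MTHFD2 by 0.72 (adjusted p = 4.73e-06). The cytosolic serine hydroxymethyltransferase SHMT1 fell by 1.02 on the log2 scale, from 31.9, 30.4 and 32.1 CPM to 15.5, 15.8 and 15.3 CPM (adjusted p = 6.56e-07, edgeR). Of the 20 cytosolic aminoacyl-tRNA synthetases, which charge tRNAs and include many ATF4 targets, 12 rose and 3 fell, over a range of log2 fold changes from -0.56 to 0.91.

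The promoters of 5 of these genes are shown because their windows hold a motif of ATF4 or of NRF2. Each line gives the 250 bases before the RefSeq start on the gene's own strand, 5′ to 3′, on GRCh38.p14. Gene positions given above are those of GENCODE, which can place the start elsewhere. The windows of ASNS and GCLM overlap these genes as placed by GENCODE, and the marked letters of ASNS lie inside the gene so placed. Capitals mark the motif. The C/EBP-ATF response element was searched as TGATGNAAN and the antioxidant response element as TGACNNNGC, on both strands.
ASNS (chr7:97872409-97872658, minus strand): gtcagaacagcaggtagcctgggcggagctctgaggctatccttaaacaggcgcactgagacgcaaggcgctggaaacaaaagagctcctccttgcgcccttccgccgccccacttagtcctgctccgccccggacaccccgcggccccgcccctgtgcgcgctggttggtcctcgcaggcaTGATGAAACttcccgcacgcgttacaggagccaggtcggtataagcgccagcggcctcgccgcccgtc
CHAC1 (chr15:40953221-40953470, plus strand, motif on the other strand): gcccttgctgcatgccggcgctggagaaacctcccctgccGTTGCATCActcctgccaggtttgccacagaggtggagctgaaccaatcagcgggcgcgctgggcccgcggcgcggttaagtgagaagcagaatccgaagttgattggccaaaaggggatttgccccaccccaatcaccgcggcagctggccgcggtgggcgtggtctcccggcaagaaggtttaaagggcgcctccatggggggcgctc
ATF3 (chr1:212565157-212565406, plus strand): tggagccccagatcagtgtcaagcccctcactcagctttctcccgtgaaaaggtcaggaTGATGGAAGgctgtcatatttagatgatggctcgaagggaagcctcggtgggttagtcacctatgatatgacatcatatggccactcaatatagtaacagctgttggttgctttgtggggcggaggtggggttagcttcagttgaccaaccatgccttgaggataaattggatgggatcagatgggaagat
GCLM (chr1:93909431-93909680, minus strand, motif on the other strand): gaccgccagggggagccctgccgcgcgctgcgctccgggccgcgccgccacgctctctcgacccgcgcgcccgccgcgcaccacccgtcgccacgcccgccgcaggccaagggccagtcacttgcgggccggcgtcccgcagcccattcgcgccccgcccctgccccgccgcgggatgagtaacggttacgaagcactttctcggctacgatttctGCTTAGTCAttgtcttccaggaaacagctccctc
TXNRD1 (chr12:104215529-104215778, plus strand): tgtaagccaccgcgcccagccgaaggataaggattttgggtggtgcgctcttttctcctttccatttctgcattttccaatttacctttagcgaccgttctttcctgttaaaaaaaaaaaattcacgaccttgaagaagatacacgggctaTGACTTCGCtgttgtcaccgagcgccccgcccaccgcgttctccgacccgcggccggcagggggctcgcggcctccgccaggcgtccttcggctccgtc
The C/EBP-ATF letters stood in 3.13% of the 35116 promoters of the table. They stood in 2 of the 18 matched promoters of the stress-response list and in 3 of 16 of the serine and asparagine list, where the further genes MTHFD1L and GOT1 had log2 fold changes of 0.37 and 0.17. The antioxidant letters stood in 10.9% of all promoters and in 5 of 22 of the NRF2 list. Of those 5, TXNRD1, GCLM and ME1 rose (ME1 by 0.60), CBR1 fell, and PGD had a log2 fold change of 0.11 (adjusted p = 0.243, edgeR). A match is a description of the letters in this window and not a binding site.

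**Figure D2:**
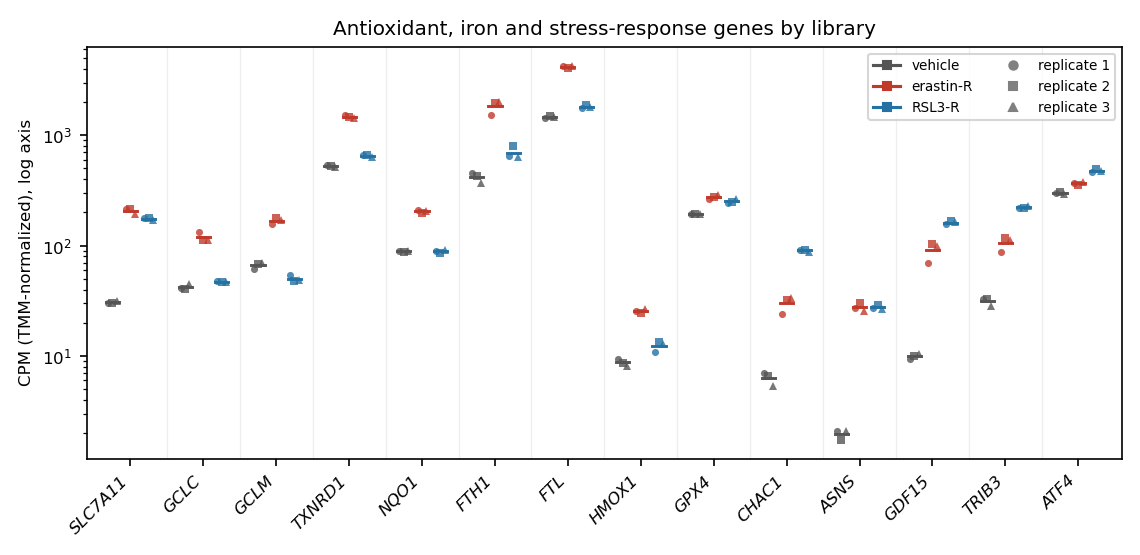
CPM on a log axis for 14 antioxidant, iron and stress-response genes in every library, with replicates by shape and the group mean as a bar. The erastin-R points lie above the vehicle points for each of the 14 genes, and SLC7A11, GCLC, GCLM, TXNRD1, NQO1, FTH1, FTL and HMOX1 are highest in erastin-R while CHAC1, GDF15, TRIB3 and ATF4 are highest in RSL3-R libraries.

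Chaperones did not share this direction. In the endoplasmic reticulum list 7 of 25 tested members rose and 10 fell, with a median of -0.006. HSPA5, the main chaperone of that compartment, rose by 0.62 on the log2 scale, from 839, 843 and 853 CPM to 1311, 1283 and 1300.0 CPM (adjusted p = 1.70e-07, edgeR), and its co-chaperone DNAJB9 rose by 0.74 (adjusted p = 6.99e-06). ERO1B, an oxidase that forms disulfide bonds, was differentially expressed and higher (log2 fold change 1.10, standard error 0.11, adjusted p = 2.38e-06, edgeR). The cytosolic heat shock proteins were lower, with 13 of 17 tested members that fell, 2 that rose and a median of -0.60 (-0.58 without erastin-R replicate 1). With all libraries 4 members (23.5%) were differentially expressed and lower, against 6.66% of all genes. The count was 5 without that replicate 1, with HSPH1 added. HSPA8 (ENSG00000109971; chr11:123057489-123063230), the constitutive Hsp70, had 1841, 1950.0 and 2016 CPM in vehicle and 1061, 833 and 839.6 CPM in erastin-R libraries (log2 fold change -1.09, standard error 0.08, adjusted p = 1.65e-07, edgeR). Its partner DNAJA1 went from 366, 382 and 376 CPM to 184, 155 and 159 CPM (log2 fold change -1.18, standard error 0.07, adjusted p = 1.05e-08, edgeR). HSPA1A fell by 1.33 (adjusted p = 1.78e-05, edgeR) and shares 71.3% of its 50-base words, mostly with HSPA1B, so the 2 genes cannot be read apart. For HSPA8 and DNAJA1, replicate 1 lay between the vehicle libraries and the other erastin-R libraries.

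Cholesterol synthesis genes were lower in erastin-R cells as a group. Of the 26 members 20 fell, with a median of -0.70. Of these, 4 (15.4% of the list) were differentially expressed, against 6.66% of all genes that were lower. FDPS, which makes farnesyl diphosphate, had 161, 154 and 151 CPM in vehicle, 84.2, 59.4 and 68.9 CPM in erastin-R and 164, 163 and 165 CPM in RSL3-R libraries. The log2 fold change against vehicle was -1.13 ± 0.10 (standard error; adjusted p = 3.57e-07, edgeR), and the difference from RSL3-R cells was -1.21 (adjusted p = 3.53e-07). ACAT2, the thiolase at the start of the pathway, went from 91.6, 95.8 and 101 CPM to 46.6, 38.0 and 43.0 CPM (log2 fold change -1.17, standard error 0.08, adjusted p = 4.00e-08, edgeR). Of the exon length of ACAT2, 52.3% lies under other genes, with SOD2-OT1 on the opposite strand the largest overlap. HMGCS1, a synthase early in the pathway, fell by 0.83 (adjusted p = 2.61e-07, edgeR). INSIG1, which holds back the sterol-sensing machinery, had a log2 fold change of 0.10 (adjusted p = 0.228, edgeR). LSS, which closes the sterol rings, fell by 1.08 (adjusted p = 2.82e-07, edgeR). Without erastin-R replicate 1 the median was -0.71 and the count of differentially expressed members went from 4 to 2. LSS, lowest in that library, then stood at -0.98 on the log2 scale. In RSL3-R libraries the list medians relative to vehicle were 0.03, -0.03 and 0.01, against -0.74, -0.71 and -0.66 in erastin-R libraries. The median of the direct differences was -0.51. Between the survivor groups 4 of the 26 members were differentially expressed, each lower in erastin-R cells, as 6.86% of all genes were.

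Fatty acid genes fell in part. In that list 14 of 23 tested members fell and 3 rose, with a median of -0.25. Differentially expressed with all libraries were 2 higher (8.7%) and 1 lower (4.35%), near the 6.7% and 6.66% of all genes. Without erastin-R replicate 1 the median was -0.21, and these counts were 2 higher and 2 lower. Of the desaturases, which place double bonds in fatty acids, SCD, FADS1 and FADS2 fell. SCD (ENSG00000099194; chr10:100347124-100364834), which makes monounsaturated fatty acids, had 889.8, 918 and 941 CPM in vehicle, 574, 572 and 575 CPM in erastin-R and 1187, 1190.0 and 1178 CPM in RSL3-R libraries (log2 fold change -0.68, standard error 0.05, adjusted p = 9.67e-08, edgeR). Its difference from RSL3-R cells was -1.05 (adjusted p = 3.17e-09, edgeR). FADS2 and FADS1, the desaturases of polyunsaturated fatty acid synthesis, fell by 1.17 and 0.74 on the log2 scale (adjusted p = 2.59e-08 and 1.19e-07, edgeR), FADS2 from 463, 442 and 437 CPM to 174, 205 and 217 CPM. The elongase ELOVL5 fell by 0.29 (adjusted p = 0.00127). FASN, which makes palmitate, had 858, 817 and 809 CPM and 679, 954 and 913 CPM, where erastin-R replicate 1 lay below and replicates 2 and 3 above each vehicle library (adjusted p = 0.779, edgeR, and 7.94e-04 without replicate 1 with a log2 fold change of 0.17). SREBF1, the regulator of the pathway, behaved in the same way (167, 165 and 161 CPM in vehicle, 122, 181 and 185 CPM in erastin-R libraries). MID1IP1, which activates acetyl-CoA carboxylase, and the further desaturase-family gene FADS3 were differentially expressed and higher (log2 fold changes 1.09 and 1.07, adjusted p = 1.52e-05 and 3.63e-07, edgeR).

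Genes of DNA replication fell across the list. Of 35 members 33 fell and 14 (40%) were differentially expressed, with a median of -0.80, the lowest of the 27 lists. Each of the 35 had a negative log2 fold change. CCNE2, a cyclin of S-phase entry, was at 18.8, 22 and 20.4 CPM in vehicle and 6.01, 3.69 and 4.56 CPM in erastin-R libraries (log2 fold change -2.10, standard error 0.16, adjusted p = 1.19e-07, edgeR). Of its exon length, 37.1% lies under other genes, with INTS8 on the opposite strand the largest overlap. MCM10 and CDC6, which load and start the replication helicase, fell by 1.80 and 1.71 on the log2 scale (adjusted p = 3.41e-09 and 6.98e-09, edgeR). PCNA, the sliding clamp of the polymerases, went from 176, 174 and 169 CPM to 85.8, 84.8 and 82.9 CPM (log2 fold change -1.04, standard error 0.06, adjusted p = 7.46e-09, edgeR), and the helicase subunit MCM2 fell by 0.66 (adjusted p = 1.88e-06). CCNE1 fell by 0.78 (adjusted p = 0.00146, edgeR). Without erastin-R replicate 1 the median was -0.90, the 14 members were called again, and CCNE1, RFC5 and PRIM1 joined them.

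Mitosis genes fell as well. Of 35 members 27 fell, and the median was -0.48 (-0.52 without erastin-R replicate 1). Differentially expressed and lower were 4 (11.4%), against 6.66% of all genes. FOXM1 (ENSG00000111206; chr12:2857681-2877155), the transcription factor of many mitosis genes, had 198, 199 and 186 CPM in vehicle and 90.9, 82.6 and 79.4 CPM in erastin-R libraries (log2 fold change -1.21, standard error 0.07, adjusted p = 1.19e-08, edgeR). NUSAP1, which binds spindle microtubules, went from 28.2, 28.9 and 26.0 CPM to 18.1, 9.80 and 9.61 CPM (log2 fold change -1.15, standard error 0.19, adjusted p = 1.47e-04, edgeR). Of the exon length of NUSAP1, 62.2% lies under other genes, with AC087721.2 on the same strand the largest overlap. CCNB1, PLK1 and CDK1, which drive entry into mitosis, fell by 0.48, 0.67 and 0.42 on the log2 scale (adjusted p = 6.56e-06, 5.15e-06 and 9.73e-05, edgeR). For the proliferation marker MKI67 the vehicle libraries held 704, 724 and 802 CPM and the erastin-R libraries 523, 338 and 321 CPM, with replicate 1 nearest to vehicle. Its log2 fold change was -0.92 (adjusted p = 7.52e-05, edgeR) and, without that library, -1.17 (adjusted p = 1.97e-17). The number of differentially expressed members went from 4 to 8 without it, with MKI67, BUB1B, CENPE and KIF20A added. Some of these genes lay above their level in RSL3-R cells. The list medians relative to vehicle were -0.37, -0.56 and -0.50 in erastin-R and -1.28, -1.33 and -1.25 in RSL3-R libraries. Of the 35 members 6 were called above their RSL3-R level, as 3.48% of all genes were (median difference 0.79). CCNB1 differed by 0.94 (adjusted p = 2.64e-08, edgeR) and PLK1 by 0.98 (adjusted p = 3.81e-07). The letters TTTGAA of the cell cycle homology region stood, on either strand, within the 250 bases before the start in 15 of 29 matched promoters of this list and in 13.3% of all promoters. The window of HMMR, a spindle protein that fell by 1.12 (adjusted p = 3.11e-06, edgeR), is shown because it holds the letters 2 times in a row, in capitals:
HMMR (chr5:163460382-163460631, plus strand): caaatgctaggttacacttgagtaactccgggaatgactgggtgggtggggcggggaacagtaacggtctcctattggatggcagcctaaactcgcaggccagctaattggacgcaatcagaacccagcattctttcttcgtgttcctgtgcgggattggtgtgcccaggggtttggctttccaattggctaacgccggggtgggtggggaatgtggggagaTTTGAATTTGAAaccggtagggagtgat

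Regulators of the G1 phase went both ways. In this list 9 of 23 tested members rose and 9 fell, and the median was -0.14 with all libraries and -0.02 without erastin-R replicate 1. CCND1 (ENSG00000110092; chr11:69641087-69654474), the cyclin that starts G1 progression, had 488, 476 and 472 CPM in vehicle and 224, 233 and 234 CPM in erastin-R libraries (log2 fold change -1.05, standard error 0.05, adjusted p = 2.71e-09, edgeR), while its relative CCND2 went from 10.7, 10.1 and 10.3 CPM to 44.0, 32.6 and 34.9 CPM (log2 fold change 1.84, standard error 0.13, adjusted p = 5.50e-08, edgeR). The CDK inhibitor CDKN1C rose from 6.97, 6.49 and 5.67 CPM to 15.4, 28.2 and 29.5 CPM (log2 fold change 1.93, standard error 0.20, adjusted p = 3.17e-06, edgeR), with replicate 1 the lowest erastin-R library. RBL1, a relative of the retinoblastoma protein, fell by 1.62 (adjusted p = 5.89e-09, edgeR). CDKN1A, the p53 target that encodes p21, had 81.3, 79.5 and 75.1 CPM and 59.1, 79.3 and 75.5 CPM, ranges that overlapped (log2 fold change -0.14, adjusted p = 0.209, edgeR). CDK6 and CDKN1B rose by 0.31 and 0.31, and CDK4, with 43.2% of its exon length under other genes, mostly TSPAN31, fell by 0.45 (adjusted p = 0.00184, 0.00205 and 1.78e-04, edgeR). CDKN2C, an inhibitor of CDK4 and CDK6, fell by 1.06 (adjusted p = 2.06e-07) and by 0.97 without erastin-R replicate 1, inside the fold threshold.

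**Figure D3:**
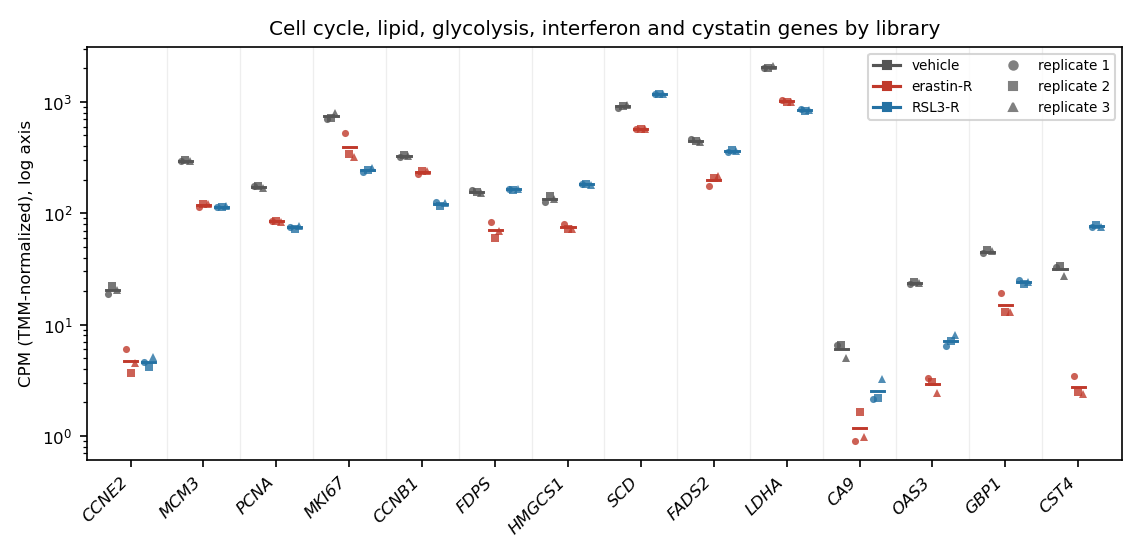
CPM on a log axis for 14 genes of the cell cycle, lipid synthesis, glycolysis, interferon response and protease inhibition in every library, with replicates by shape and the group mean as a bar. The erastin-R points lie below the vehicle points for each gene, and FDPS, HMGCS1, SCD and CST4 lie above vehicle in the RSL3-R libraries.

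Ribosome genes fell slightly. Of 47 cytosolic ribosomal proteins 30 fell, with a median of -0.26 and a range from -0.93 to 0.14. Without erastin-R replicate 1 their median was -0.28, and RPS24 and RPL11 were differentially expressed and lower. In the list of ribosome biogenesis 16 of 36 members fell and 6 rose. UBTF, which activates transcription of ribosomal DNA, was its 1 differentially expressed member with all libraries (log2 fold change -1.10, standard error 0.06, adjusted p = 1.36e-08, edgeR), from 155, 164 and 149 CPM to 76.5, 68.0 and 74.0 CPM. Without erastin-R replicate 1 the count was 3, with NHP2 and RRS1 added, and the list median went from -0.15 to -0.23. The nucleolar proteins NCL and FBL fell by 0.68 and 0.28 on the log2 scale (adjusted p = 2.22e-04 and 0.0107, edgeR), and NPM1 had a log2 fold change of -0.23 (adjusted p = 0.0644). For each of the 3, replicate 1 was the highest erastin-R library, and NPM1 passed the test without it (log2 fold change -0.39, adjusted p = 8.57e-09, edgeR).

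The 13 subunits encoded by mitochondrial DNA, all of the respiratory chain and ATP synthase, had the widest gap between the list median of erastin-R replicate 1 and those of the other erastin-R libraries among the 27 lists. The medians relative to vehicle were 0.17, -0.48 and -0.42 in the erastin-R libraries and -0.09, -0.01 and 0.12 in the vehicle libraries. With all libraries 6 members fell and 1 rose, with a median of -0.29, which was -0.11 with quantile normalization and limma. Without replicate 1, 10 fell, 4 of them past the fold threshold, and the median was -0.43. The 4 were MT-CO3, MT-ND3, MT-ND4L and MT-ATP8, which were chosen for naming after their values were seen. MT-ND4L, a subunit of complex I, had 2042, 2233 and 2432 CPM in vehicle and 2723, 753 and 772 CPM in erastin-R libraries, so that replicate 1 lay above and replicates 2 and 3 below each vehicle library (log2 fold change -0.66, adjusted p = 0.128, edgeR). Without replicate 1 its log2 fold change was -1.55 (adjusted p = 6.00e-20). MT-CO3, of complex IV, was lower in each erastin-R library, with 8882, 9569 and 9212 CPM in vehicle and 5884, 4028 and 4239 CPM in erastin-R libraries (adjusted p = 4.92e-06, edgeR). The ribosomal protein RPS24, also named after its values were seen, had 435, 454 and 442 CPM in vehicle and 366, 164 and 168 CPM in erastin-R libraries, with replicate 1 nearest to vehicle.

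Glycolysis genes were lower and the hypoxia factor's transcript higher. Of 33 members of the glycolysis and hypoxia list 21 fell and 7 rose, with a median of -0.36 (-0.30 without erastin-R replicate 1). HIF1A (ENSG00000100644; chr14:61695513-61748259), the oxygen-regulated subunit of the hypoxia-inducible factor, had 549, 554 and 626 CPM in vehicle and 1522, 1344 and 1268 CPM in erastin-R libraries (log2 fold change 1.26, standard error 0.08, adjusted p = 1.90e-08, edgeR). CA9, the carbonic anhydrase that serves as a mark of hypoxia, fell by 2.37 on the log2 scale, from 6.62, 6.55 and 5.06 CPM to 0.893, 1.65 and 0.973 CPM (adjusted p = 4.05e-06, edgeR). Of its exon length, 38.5% lies under other genes, with ARHGEF39 on the opposite strand the largest overlap. EGLN3, a prolyl hydroxylase induced in hypoxia, fell by 1.76 (adjusted p = 9.81e-08). LDHA, which turns pyruvate into lactate, went from 2031, 2021 and 2114 CPM to 1033, 1008 and 992 CPM (log2 fold change -1.02, standard error 0.05, adjusted p = 3.31e-09, edgeR), and the glycolytic isomerase TPI1 fell by 1.15 (adjusted p = 9.86e-08, edgeR). Of the glucose transporters, SLC2A3 rose by 1.15 (adjusted p = 4.86e-09) and SLC2A1 had a log2 fold change of 0.00 (adjusted p = 0.97, edgeR). HK2, the first enzyme of glycolysis, rose by 0.67 (adjusted p = 1.41e-05) and was 1.21 above its level in RSL3-R cells on the log2 scale (adjusted p = 1.11e-07, edgeR). PDK1, which keeps pyruvate from the mitochondria, fell by 0.49 (adjusted p = 9.01e-05). Differentially expressed with all libraries were 2 higher (6.06%) and 5 lower (15.2%), against 6.7% and 6.66% of all genes. These 7 members were called again without replicate 1.

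In the lysosome and autophagy list 13 of 34 members rose and 6 fell, with a median of 0.05. Of all genes, 27.1% rose and 26.8% fell. NPC1, which moves cholesterol out of lysosomes, had 264, 262 and 262 CPM in vehicle and 751, 848 and 883 CPM in erastin-R libraries (log2 fold change 1.66, standard error 0.06, adjusted p = 4.20e-10, edgeR). SQSTM1, an autophagy receptor that is also an NRF2 target, went from 293, 293 and 270.5 CPM to 718, 840.0 and 834 CPM (log2 fold change 1.48, standard error 0.07, adjusted p = 2.20e-09, edgeR). WIPI1, an early autophagy protein with 28.1% of its exon length under other genes, rose by 1.46 (adjusted p = 6.21e-08, edgeR), and MAP1LC3B, which coats autophagosomes, by 0.33 (adjusted p = 3.44e-04). Of the exons of SQSTM1, 22% of the length lies under genes on the opposite strand, mostly MRNIP. The 4 differentially expressed members were each higher (11.8%, against 6.7% of all genes). Of these 4, GABARAPL1 (named after its values were seen) was inside the fold threshold without erastin-R replicate 1.

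Interferon-stimulated genes were split, with more members lower than higher. Of 35 tested members 19 fell and 6 rose, 11 (31.4%) were differentially expressed and lower, and the median was -0.43. OAS3 (ENSG00000111331; chr12:112938352-112973249), which senses double-stranded RNA, had 23.1, 24.0 and 23.6 CPM in vehicle, 3.33, 3.05 and 2.43 CPM in erastin-R and 6.38, 7.08 and 8.01 CPM in RSL3-R libraries (log2 fold change -3.00, standard error 0.14, adjusted p = 1.80e-09, edgeR). OAS2 fell by 1.66 on the log2 scale (adjusted p = 2.29e-06, edgeR), and the GTPase GBP1 from 43.8, 46.6 and 45.5 CPM to 19.4, 12.8 and 12.9 CPM (log2 fold change -1.59, standard error 0.13, adjusted p = 2.58e-07, edgeR). List medians were -0.22, -0.54 and -0.47 in the erastin-R libraries, with replicate 1 nearest to vehicle, and 0.06, 0.23 and 0.10 in the RSL3-R libraries. Tested directly, 8 of the 35 members were differentially expressed and lower in erastin-R than in RSL3-R cells and 1 was higher. Of all genes, 6.86% were lower and 3.48% higher by this rule. Without erastin-R replicate 1 the median was -0.50 and 10 of the 11 calls were made again, with IFIT1 and IFI44L added.

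Cytokine genes moved in both directions. Of 22 tested members of the list of chemokines, interleukins and colony-stimulating factors, 10 rose and 5 fell. Differentially expressed were 6 higher (27.3%) and 3 lower (13.6%), against 6.7% and 6.66% of all genes. The same 9 were called without erastin-R replicate 1, with IL18 added. The list median of 0.52 was 0.07 without the filter on low counts, where further members with few reads enter, 0.34 without vehicle replicate 2 and 0.72 without vehicle replicate 1. IL11 (ENSG00000095752; chr19:55364389-55370463), a cytokine of the IL-6 family, had 29.2, 26.8 and 23.6 CPM in vehicle, 97.6, 133 and 131 CPM in erastin-R and 34.5, 39.1 and 33.4 CPM in RSL3-R libraries (log2 fold change 2.19, standard error 0.12, adjusted p = 7.59e-09, edgeR). It was 1.76 above RSL3-R cells on the log2 scale (adjusted p = 7.04e-08, edgeR). IL24, of the IL-10 family, was at 0.596, 0.247 and 0.185 CPM and 4.41, 6.17 and 5.29 CPM (log2 fold change 3.91, standard error 0.37, adjusted p = 9.91e-07, edgeR), low levels in each group, and was 2.71 above RSL3-R cells (adjusted p = 1.21e-05, edgeR). IL6 went the other way between the survivor groups, at 5.87 ± 0.963 CPM in vehicle, 15.9 ± 0.775 CPM in erastin-R and 31.8 ± 0.521 CPM in RSL3-R cells (SD, n = 3; difference -1.0, adjusted p = 4.43e-06, edgeR). The interferon-induced chemokine CXCL11 fell by 2.19 (adjusted p = 0.00189) from 0.894, 0.679 and 0.740 CPM to 0.238, 0.0636 and 0.182 CPM, and CXCL16 by 1.17 (adjusted p = 0.0193, edgeR). Without vehicle replicate 3 the log2 fold change of CXCL16 was -0.79 (adjusted p = 0.118, edgeR).

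Matrix genes fell more often than they rose. Of 35 tested collagens, laminins and other matrix proteins 14 fell and 5 rose, and 5 were differentially expressed and lower against 2 higher (5 and 3 without erastin-R replicate 1, with LAMB3 added). With all libraries these calls were 14.3% lower and 5.71% higher, against 6.66% and 6.7% of all genes. Fibronectin, FN1, went from 2143, 2149 and 2248 CPM to 1118, 993 and 992 CPM (log2 fold change -1.08, standard error 0.06, adjusted p = 7.12e-09, edgeR), and COL7A1, of anchoring fibrils, fell by 1.31 (adjusted p = 6.61e-08, edgeR). COL8A1 rose by 1.15 (adjusted p = 2.11e-09, edgeR). Log2 fold changes over this list ran from -2.135 to 4.934, and the members at these extremes are not reported here. Of 15 tested integrins 10 fell and 1 rose, each by less than 2-fold, and the list medians were -0.34, -0.21 and -0.23 in the erastin-R and 0.37, 0.45 and 0.41 in the RSL3-R libraries.

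Of 33 tested matrix proteases and their inhibitors 10 rose and 15 fell. Differentially expressed were 4 higher (12.1%) and 5 lower (15.2%), against 6.7% and 6.66% of all genes. Without erastin-R replicate 1 the counts were 5 and 5, with MMP15 added. CST1, CST2 and CST4 are neighbouring genes for secreted inhibitors of cysteine proteases. CST4 (ENSG00000101441; chr20:23685640-23689040) had 32.6, 33.8 and 27.3 CPM in vehicle, 3.45, 2.48 and 2.37 CPM in erastin-R and 74.8, 79.1 and 75.8 CPM in RSL3-R libraries (log2 fold change -3.49, standard error 0.13, adjusted p = 4.20e-10, edgeR). CST2 fell by 3.13 on the log2 scale, from 12.6, 12.5 and 11.1 CPM to 1.55, 1.4 and 1.16 CPM (adjusted p = 4.26e-09, edgeR), and held 24.8, 28.0 and 22.7 CPM in RSL3-R libraries. CST1 was at 0.179, 0.127 and 0.365 CPM in erastin-R libraries against 12.4, 15.1 and 17.3 CPM in vehicle (log2 fold change -6.00, standard error 0.26, adjusted p = 9.22e-10, edgeR). The differences between erastin-R and RSL3-R cells were -4.78 for CST4, -4.19 for CST2 and -7.21 for CST1 (adjusted p = 2.11e-11, 4.48e-10 and 1.50e-10, edgeR). CST1 shares 23.6% and CST4 30.2% of their 50-base words with other genes, mostly with each other, so the amounts of the single genes are uncertain. Urokinase, PLAU (named after its values were seen), fell by 1.02 (adjusted p = 5.57e-08, edgeR). The metalloproteases ADAMTS6 and ADAMTS1 rose by 1.71 and 1.43 (adjusted p = 1.67e-08 and 2.08e-08, edgeR), and the collagenase MMP1 fell by 0.96 (adjusted p = 0.00295).

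Markers of epithelial and mesenchymal state gave no common direction, with 7 of 24 tested members that rose and 6 that fell and a median of -0.02 (-0.10 without erastin-R replicate 1). VIM, the mesenchymal intermediate filament, had 1465, 1444 and 1518 CPM in vehicle and 1581, 1377 and 1378 CPM in erastin-R libraries (log2 fold change -0.03, adjusted p = 0.718, edgeR), and ZEB1 had a log2 fold change of -0.03 (adjusted p = 0.845). CDH1, the epithelial cadherin, was near the limit of detection at 0.894, 0.865 and 1.67 CPM and 0.655, 0.382 and 1.22 CPM (adjusted p = 0.232, edgeR). SNAI1, a repressor of CDH1, rose from 1.43, 1.30 and 1.91 CPM to 5.60, 5.34 and 5.90 CPM (log2 fold change 1.86, standard error 0.20, adjusted p = 2.99e-06, edgeR), and the epithelial keratins KRT80, KRT18 and KRT8 fell by 1.74, 1.12 and 1.0 (adjusted p = 6.45e-10, 9.48e-08 and 2.23e-08, edgeR). Of 27 tested targets and components of YAP and TGF-beta signaling 14 rose and 5 fell. CYR61 and CTGF, the standard YAP targets, rose by 1.16 and 1.01 on the log2 scale (adjusted p = 5.02e-09 and 1.08e-08, edgeR), CYR61 from 1408, 1385 and 1291 CPM to 2812, 3116 and 3193 CPM. TGFBR2, the type 2 receptor of TGF-beta, fell from 589, 592 and 626 CPM to 279, 302 and 292 CPM (log2 fold change -1.05, standard error 0.06, adjusted p = 5.02e-09, edgeR), and the ligand genes INHBB and BMP4 fell by 1.64 and 1.26 (adjusted p = 7.98e-09 and 6.01e-09, edgeR). In the epithelial-mesenchymal list 2 members (8.33%) were differentially expressed and higher and 3 (12.5%) lower. In the YAP and TGF-beta list these were 2 (7.41%) and 3 (11.1%), and of all genes 6.7% and 6.66%. The same 5 differentially expressed members of each of these 2 lists were called without erastin-R replicate 1.

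The largest changes outside these programmes included genes of unlike function. Among the 10 largest increases, which IL24, ASNS and GDF15 are part of, PYY, a gut peptide hormone, had 0.0596, 0.247 and 0.308 CPM in vehicle and 1.01, 1.97 and 2.37 CPM in erastin-R libraries (log2 fold change 3.08, standard error 0.49, adjusted p = 1.22e-04, edgeR). The membrane protein gene TMEM178A went from 0.536, 0.618 and 1.23 CPM to 7.03, 7.38 and 7.05 CPM (log2 fold change 3.16, standard error 0.26, adjusted p = 2.58e-07, edgeR). INHBE, a stress-induced activin chain, was at least 8.46-fold higher, a lower bound because no vehicle library exceeded 3 counts, and its difference from RSL3-R cells was -2.02 on the log2 scale (adjusted p = 4.04e-06, edgeR). LVRN, C1QTNF12 and AP003071.5 rose by 3.06, 3.06 and 3.04 (adjusted p = 5.56e-06, 1.17e-05 and 1.57e-04, edgeR). BOLA2B also ranks there, but 91.8% of its 50-base words occur in other genes, mostly BOLA2, and its levels were 0.238, 0.185 and 0.185 CPM in vehicle and 0.715, 16.5 and 0.730 CPM in erastin-R libraries, so that replicate 2 held most of its reads. Without that library the log2 fold change of BOLA2B was 1.79 (adjusted p = 0.225, edgeR). Among the 10 largest decreases besides CST1, AGR2 (ENSG00000106541; chr7:16791811-16833433), a secretory disulfide isomerase, went from 9.24, 11.3 and 8.94 CPM to 0.536, 0.573 and 0.790 CPM (log2 fold change -3.94, standard error 0.20, adjusted p = 3.98e-09, edgeR). LGR5, the R-spondin receptor known as a stem cell marker, fell from 3.46, 5.19 and 4.26 CPM to 0.357, 0.318 and 0.243 CPM (log2 fold change -3.78, standard error 0.31, adjusted p = 2.61e-07, edgeR). LFNG, which modifies Notch receptors, fell by 3.67 (adjusted p = 2.10e-08), and the double-stranded RNA receptor TLR3 by 3.57 (adjusted p = 1.06e-06, edgeR). The glycosyltransferase B3GALT5, CCDC190 and the small GTPase RAB37 fell by 4.17, 3.88 and 3.71 (adjusted p = 1.60e-08, 3.87e-08 and 4.04e-09, edgeR). F13A1, a clotting factor subunit, and LDB3 were at least 16.1-fold and 12.4-fold lower, both lower bounds against 3 counts. Each of these 20 genes was called in the same direction without erastin-R replicate 1. In RSL3-R libraries AGR2 held 11.1, 10.1 and 11 CPM and LFNG 27.2, 26.3 and 22.6 CPM, and both were above erastin-R cells there (differences -4.07 and -3.56, adjusted p = 3.73e-09 and 4.63e-08, edgeR).

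**Figure D4:**
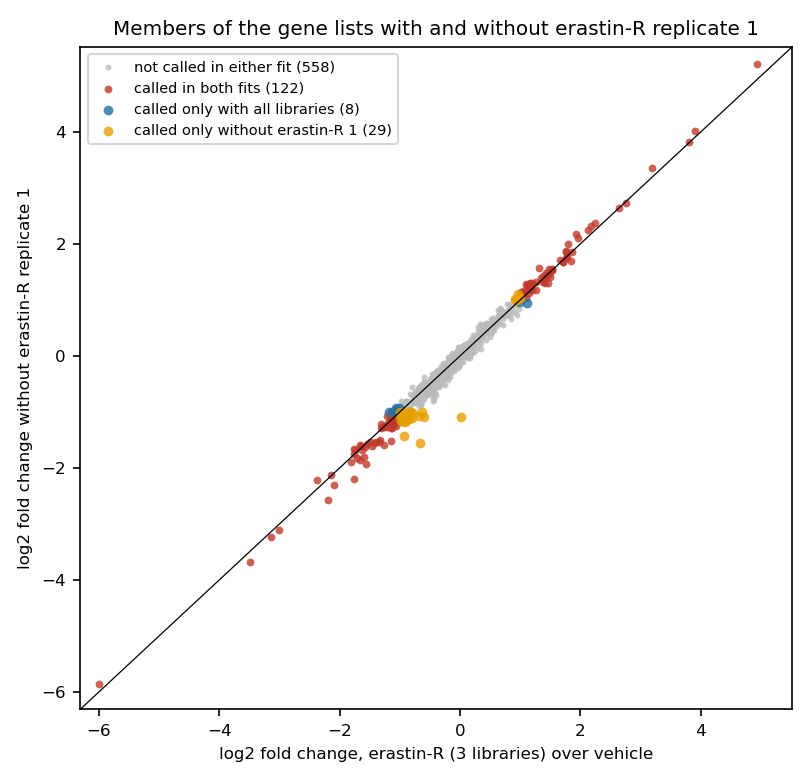
Each point is 1 of the 717 tested list members, with its log2 fold change from all libraries on the x axis and without erastin-R replicate 1 on the y axis; the line marks equal values. The fits share all other libraries, and 122 members were called in both, 8 only with all libraries and 29 only without replicate 1.

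Calls for 122 list members were made with and without erastin-R replicate 1. The 8 members called only with it included ABCC2 and GABARAPL1, higher, and CDKN2C, LSS, SLC40A1, STEAP3 and USP18, lower. For USP18 the adjusted p was 0.0795 without replicate 1 (edgeR), while the other 7 of the 8 kept an adjusted p under 0.05 and moved inside the fold threshold. Another 29 members were called only without it, 22 of them lower. Some of these moved far, such as MT-ATP8 from 0.03 to -1.09, MT-ND4L from -0.66 to -1.55 and RPS24 from -0.93 to -1.42. Of the other genes named here, CTGF, MID1IP1, NUSAP1, KRT8 and PLAU moved just inside the fold threshold with another library left out, at an absolute log2 fold change of 0.96 or more. With quantile normalization and limma, LDHA (-0.79), HSPA8 (-0.89), FN1 (-0.91) and SHMT1 (-0.98) kept an adjusted p under 0.05 and lay inside the fold threshold. Over all genes, 83 higher and 107 lower calls were lost, and the 5 largest changes among them in each direction were those of low genes. ADORA2A, an adenosine receptor, was at 0.119, 0.123 and 0.0617 CPM in vehicle and 0.953, 0.318 and 0.365 CPM in erastin-R libraries, and HS3ST3A1, LRP1B, PSD and ARIH2OS were at 1.79 CPM or less in each of the 6 libraries. Of the lower ones, DIO2, SPOCK3, NPIPA7, AANAT and MALL stayed at 1.79 CPM or less, and NPIPA7 shares 93.8% of its words with other genes. Except for ADORA2A, these calls were also lost under other settings, so they do not hang on replicate 1 alone. They were lost in 10 of the 15 alternatives for HS3ST3A1, DIO2 and SPOCK3, in 6 for LRP1B and in 4 for NPIPA7. For PSD, ARIH2OS and AANAT it was 3, and for MALL 2.

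Erastin-R replicate 1 was more than 1 log2 unit above the mean of replicates 2 and 3 for 260 genes and more than 1 below it for 243. When replicate 2 took that place the counts were 124 above and 207 below, and for replicate 3 they were 119 and 188. The count below was thus closer to that of the other libraries than the count above. EIF3C, a translation initiation factor subunit, had 21.5, 33.1 and 12.6 CPM in vehicle and 36.0, 3.31 and 6.69 CPM in erastin-R libraries, and 45.4% of its 50-base words occur in other genes, mostly EIF3CL. MT-ATP8, of ATP synthase, had 35.9, 53.5 and 77.7 CPM and 117, 23.5 and 28.8 CPM, and 22.2% of its length lies under MT-ATP6. U2AF1L5 had 8.76, 1.78 and 2.13 CPM in erastin-R libraries and shares 94.3% of its words, mostly with U2AF1. CD38 and AL121845.3 completed the 5 largest gaps above, with at most 1.07 CPM in the erastin-R libraries. On the other side stood BOLA2B, KLHL30, TMEM191B, SOCS1 and CALHM3, of which KLHL30 had 0, 1.59 and 0.425 CPM and SOCS1 0, 0.636 and 0.425 CPM in the erastin-R libraries, and TMEM191B shares 78.9% of its words with other genes. The gap of BOLA2B came from replicate 2 alone, with 0.715, 16.5 and 0.730 CPM in erastin-R replicates 1, 2 and 3.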

How the data were processed

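RNA sequencing of poly(A) libraries was analysed for 3 vehicle and 3 erastin-R libraries, with 3 RSL3-R libraries in the same fit. The authors deposited raw read counts per gene beside FPKM values, which they had scaled by gene length and depth and which were not used here. Per the submitters' processing notes, HISAT2 2.0.5 and featureCounts 1.5.0-p3 were used; whether counting used strand is not given in the sources used here. Gene positions are those of GENCODE 29 on GRCh38, where 58724 of 58735 genes had identical coordinates.

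Counts were tested with edgeR 4.0.16 (TMM, filterByExpr, quasi-likelihood F-test, all 9 libraries in 1 model, Benjamini-Hochberg adjustment over 16188 genes). Standard errors were taken from the fold change and its F value. A fold against a group with 3 counts or fewer in each library is a lower bound against a floor of 3 counts, which was 0.174 to 0.195 CPM per library. The floors cover counting error only, while the standard errors also take in the spread between libraries. The functions were tested on simulated data. Promoters were read from RefSeq (GRCh38.p14), and exon overlap and shared 50-base words from GENCODE. R 4.3.3, limma 3.58.1, DESeq2 1.42.0 and Python 3.11.15 were used.

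The members and lists were chosen with earlier results of these data known. Named were the 10 largest protein-coding changes per direction without overlap of groups and with at least 1 CPM, key members of each list with up to 3 differentially expressed members per direction, and, for erastin-R replicate 1, the 5 largest lost calls and the 5 largest gaps per direction. The NRF2 members that fell, the genes given for a promoter match and other members that lost or gained a call without erastin-R replicate 1 were named after their values were seen. Alternatives were median-ratio size factors, DESeq2, quantile normalization with limma, no filter on low counts, 2 groups only, a replicate block, other thresholds and each library left out. Results for some members are not reported here.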

Additional observations from a re-analysis of the deposited data

How the results depend on the processing

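The calls and list medians were recomputed under each alternative. With a threshold on the adjusted p alone, 4390 genes were higher and 4345 lower in erastin-R than in vehicle cells. Under the other settings 967 to 1253 genes were differentially expressed and higher and 885 to 1320 lower, and 468 to 789 and 1046 to 1354 against RSL3-R cells, with both highest counts without erastin-R replicate 1. The replicate numbers did not pair the libraries: deviations of same-numbered libraries correlated at -0.0904, 0.0322 and -0.0842. With the replicate number as a block, 1071 genes were higher and 1082 lower than in vehicle, and 551 and 1101 against RSL3-R cells. Without the filter on low counts the median log2 fold change was 0.058 for ferroptosis effectors, 0.60 for NRF2 targets, 0.73 for stress-response genes, -0.041 for endoplasmic reticulum chaperones, 0.07 for cytokines and -0.32 for matrix proteases. With quantile normalization it was -0.032 for endoplasmic reticulum chaperones, -0.19 for ribosomal proteins, -0.11 for mitochondrial-DNA genes and -0.33 for glycolysis. With 1 library left out, over the members tested in each setting, medians ranged from 0.37 to 0.54 (cystine and glutathione), 0.087 to 0.14 (ferroptosis effectors), -0.006 to 0.043 (iron), 0.62 to 0.83 (NRF2), 0.70 to 0.83 (stress response), 0.26 to 0.36 (tRNA synthetases), -0.056 to -0.003 (endoplasmic reticulum chaperones), -0.75 to -0.69 (cholesterol), -0.28 to -0.21 (fatty acids), -0.90 to -0.80 (S phase), -0.18 to -0.024 (G1), -0.39 to -0.30 (glycolysis), -0.43 to -0.20 (mitochondrial DNA), 0.044 to 0.086 (lysosome), -0.47 to -0.32 (interferon), 0.34 to 0.72 (cytokines), -0.23 to -0.11 (matrix), -0.30 to -0.20 (integrins) and -0.10 to 0.024 (epithelial-mesenchymal markers). The cause of these shifts was not tested. The medians of the iron and epithelial-mesenchymal lists changed sign in this range. Depth limited genes near the floor of 3 counts, such as CNR1.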
